A study of Mus musculus with 6 samples.

Results

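The genes described here encode the proteins of the cytosolic ribosome, together with a few paralogs of them. They were selected by symbol: Rpl, Rps or Rplp followed by a number and an optional a, x, l or l1, plus Rpsa, with numbered pseudogene names left out. The rule gave 82 of the 16854 genes in the deposited table. Of these, 76 are core members, with 30 genes for the small subunit, 43 for the large subunit and 3 for the P-stalk (Rplp0, Rplp1 and Rplp2). The other 6 are paralogs whose symbol ends in l or l1: Rpl3l, Rpl22l1, Rps27l, Rpl7l1, Rpl6l and Rpl32l. The mouse annotation lists Rpl6l and Rpl32l as processed pseudogenes. All 82 passed the filter on low values, a normalised count of at least 10 in at least 3 libraries, as did 16245 genes in all.

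C2C12 is a mouse myoblast line whose cells fuse into myotubes when serum is lowered at confluence. RNA was taken on day 3 in medium with 2% horse serum, from 3 control libraries of cells with a scrambled short hairpin RNA and from 3 knockdown libraries whose cells stably carry a hairpin to Adamtsl2, a secreted glycoprotein of the extracellular matrix. The series places its question in Wnt signalling during myogenesis, and the labels do not say whether the hairpin cells were a pool or single clones. Nothing in the labels says that the libraries of a group came from separate cultures, so p-values measure the spread between these libraries, which may be technical.

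A ribosome carries about 1 copy of each of its proteins, and cells make these proteins in matched amounts. Their mRNAs are short, abundant and rich in features that tie translation to growth signals, among them a pyrimidine tract at the transcript's 5′ end. Muscle differs from most tissues in using Rpl3l, a paralog of Rpl3 found in heart and skeletal muscle fibres, where it takes the place of Rpl3 in part of the ribosomes.

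Recovered reads totalled 37346439 to 50329438 per library. Adamtsl2 was at 1325, 1266 and 1307 normalised counts in controls and at 23.2, 21.7 and 7.83 in knockdown libraries 1 to 3. The 6 muscle markers Des, Myod1, Myog, Myh3, Ckm and Acta1 summed to between 918880 and 946240 in controls and between 7193 and 8346 in knockdown. Of the fibroblast list, 4 of 5 genes were in the table (not Thy1) and summed to 304970 to 349720 in controls against 84766 to 153040 in knockdown. Its members went in different ways: Col1a1 changed by -4.96 on the log2 scale (limma adjusted p = 9.7e-05) and Dcn by 4.22 (limma adjusted p = 0.00017), while Pdgfra (0.47) and Lum (-0.29) did not pass (limma adjusted p = 0.32 and 0.11). Of the adipocyte list only Pparg was in the table, at 205 to 212 against 408 to 584. Of the endothelial list 2 of 4 genes (not Cdh5 and Kdr) summed to 6.32 to 6.65 against 18.2 to 90.6, and of the macrophage list 2 of 4 (not Ptprc and Adgre1) summed to 70.8 to 108 against 63.8 to 124. The third knockdown library stood apart: the nuclear RNA Malat1 took 2.83% of its reads, against 0.302% to 0.333% in controls and 0.511% and 0.515% in knockdown libraries 1 and 2. Mitochondrially encoded genes took 1.30% of its reads, against 2.60% to 2.98% in controls and 2.04% and 2.07% in knockdown libraries 1 and 2. The main results for the core genes, the paralogs and the lists are therefore given with and without that library. In bulk RNA, fewer cells of a type and less RNA per cell cannot be told apart.

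Sequence features of the promoters were counted next. RefSeq promoters (GRCm38.p6, 250 bases before to 50 after the start) were matched for 56 of 76 core members and 5 of 6 paralogs. A gene was counted where any of its promoters matched. A run of at least 7 bases that are each C or T, on the sense strand within 20 bases of the start, was present in 35 of the 56 core genes (62.5%). It was present in 27.5% of all 27025 genes with a promoter. The same search for A or G found 10.7% of core genes and 29.7% of all genes with a promoter. CCGGAA on either strand, the core of sites bound by ETS-family factors, was found for 31 of 56 core genes (55.4%) and for 16.7% of all. AAGATGG on either strand, part of the sites bound by Yy1, was found in 9 of 56 (16.1%) against 7.28%. CAGCTG, an E-box of the form that myogenic factors bind, was found in 2 of 56 (3.57%) against 18.3% of all genes with a promoter. It was present for Rpl3l, alone among the 5 paralogs matched. Read on the other strand, CCGGAA and AAGATGG can share letters with a run of C and T. A match is a description of the sequence only. Printed below are 60 bases before and 20 bases from the start for Rpl3l, with CAGCTG in capitals, and for 4 core genes, with the run of C and T at the start in capitals. Rpl3l and Rpl15 were lower in every knockdown library, Rps6 was higher in every one, and Rplp2 and Rpl35 were low in knockdown libraries 1 and 2 and high in the third.
Rpl3l, chr17:24727766-24727845, plus strand: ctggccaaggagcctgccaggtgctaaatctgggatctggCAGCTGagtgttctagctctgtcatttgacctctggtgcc
Rpl15, chr14:18270967-18271046, minus strand: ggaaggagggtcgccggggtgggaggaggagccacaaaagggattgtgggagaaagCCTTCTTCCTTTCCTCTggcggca
Rps6, chr4:86857348-86857427, minus strand: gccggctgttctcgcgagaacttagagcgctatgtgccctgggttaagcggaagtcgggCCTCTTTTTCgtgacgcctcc
Rplp2, chr7:141447591-141447670, plus strand: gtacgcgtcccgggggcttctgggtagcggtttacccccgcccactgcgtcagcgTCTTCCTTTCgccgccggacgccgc
Rpl35, chr2:39005112-39005191, minus strand: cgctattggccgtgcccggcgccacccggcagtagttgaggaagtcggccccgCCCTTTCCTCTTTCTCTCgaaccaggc
The 4 core genes were picked, after their values were seen, to show the tract in genes whose mRNA took different directions.

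The core genes together took a smaller part of the reads in knockdown libraries 1 and 2 and a much larger part in knockdown library 3. They accounted for 5.92%, 5.67% and 6.42% of reads in controls, 6.0% ± 0.385 (SD, n = 3). The knockdown libraries gave 4.58%, 4.86% and 13.2%, or 7.56% ± 4.92 (SD, n = 3). Libraries 1 and 2 were below all controls and library 3 above them, so the groups overlapped. Library 3 was at 2.80 times the mean of libraries 1 and 2, and at 2.21 times the control mean.

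The subunits did not move in step. Reads in small-subunit genes per read in large-subunit genes were 0.665, 0.664 and 0.667 in controls, 0.735 and 0.740 in knockdown libraries 1 and 2, and 0.899 in library 3. All knockdown libraries were thus above all controls in this ratio, with library 3 farthest. The P-stalk genes, whose products form the lateral stalk that recruits translation factors, took 0.442%, 0.429% and 0.476% of reads in controls, 0.269% and 0.286% in knockdown libraries 1 and 2, and 0.700% in library 3.

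**Figure D1:**
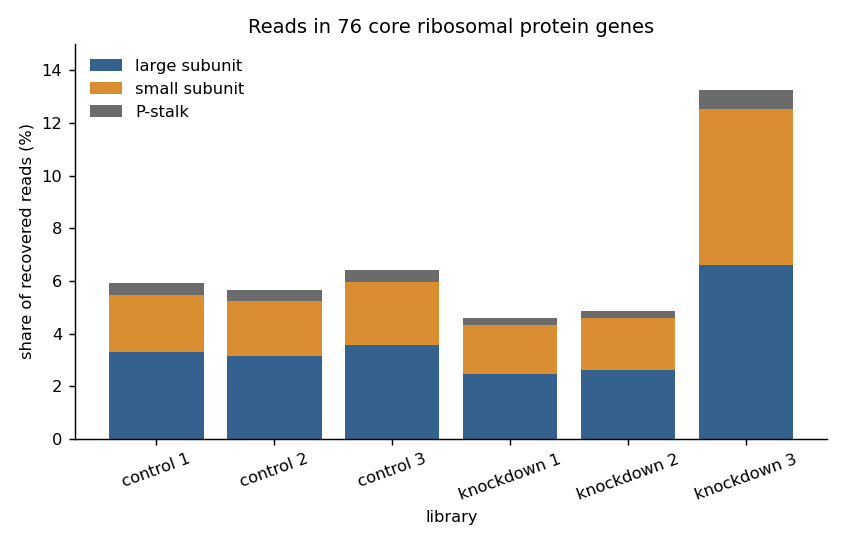
Share of each library's recovered reads (y axis, %) taken by the 76 core genes in the 6 libraries (x axis), stacked by large subunit, small subunit and P-stalk. Controls reach 5.67% to 6.42%, knockdown libraries 1 and 2 reach 4.58% and 4.86%, and knockdown library 3 reaches 13.2%.

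Reads given to processed pseudogenes bear on how well the counts separate near-identical copies. The table listed 84 ribosomal protein pseudogenes with numbered names, of which 61 were tested. They held 2.48, 2.48 and 2.44 reads per 100 core reads in controls, 2.29 and 2.24 in knockdown libraries 1 and 2, and 0.999 in library 3. How reads that fit several copies were handled is unknown here, so the values of core genes with close pseudogenes, and of Rpl6l and Rpl32l, are uncertain by such an amount or more. The highest control mean among the pseudogenes tested was 40248 normalised counts and the median 43.2, so 1 entry weighs heavily in these sums. The median pseudogene went the other way in library 3, at 2.43 against the control mean (log2), beside 0.95 for the core. Library 3 was above all controls for 86.9% of the pseudogenes tested.

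Gene by gene, limma on log2(value + 1) with all 6 libraries called few core genes. At an adjusted p of 0.05 over all 16245 genes, 0 of 76 core genes were higher and 3 were lower in knockdown, where 21.7% of all genes tested were called higher and 23.5% lower. The median log2 change was -0.01 for the core and -0.0013 for all genes. At an unadjusted p under 0.05, limma gave 1 higher and 7 lower, beside 4143 and 4431 of all 16245 genes. edgeR's quasi-likelihood test on recovered reads called 0 higher and 4 lower, beside 3765 and 3579 of all genes tested. DESeq2 called 3 higher and 6 lower, and its share of all genes was not taken. In the authors' deposited table, 6 core genes were lower and 3 higher at an adjusted p under 0.05. Of all genes tested, 4142 were lower and 4213 higher there. For 1 core gene, Rpl24, that table gave no adjusted p.

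Rpl29, a large-subunit protein also described as a heparin-binding protein, lies on chromosome 9 (106429454 to 106431568, plus strand, GRCm38) and had the most negative change. It was at 7808, 6995 and 8298 normalised counts in controls and at 3392, 3194 and 1737 in knockdown. All knockdown libraries lay below all controls, with the third lowest, by a log2 change of -1.53 ± 0.28 (SE, limma adjusted p = 0.0056). Rpl29 was the 1 core gene that was lower in knockdown library 3 than in the mean of libraries 1 and 2. Rpl15, a large-subunit protein whose gene is mutated in some cases of Diamond-Blackfan anaemia, was at 22696, 21108 and 23964 in controls and at 12918, 13440 and 14603 in knockdown. These groups did not overlap and the knockdown libraries lay close together, with a log2 change of -0.73 ± 0.13 (SE, limma adjusted p = 0.0057).

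Rplp0, the stalk base and one of the genes often used as a reference in RT-qPCR, was at 112487, 107051 and 120523 in controls and at 54333, 57470 and 85838 in knockdown. Its log2 change was -0.81 ± 0.24 (SE, limma adjusted p = 0.037). This call was lost when any control or either of knockdown libraries 1 and 2 was left out (limma adjusted p from 0.10 to 0.13), with upper-quartile scaling (0.091) and with the replicate number as a block (0.075). All knockdown libraries stayed below all controls for Rplp0. Without knockdown library 3 the log2 changes were -1.22 ± 0.07 for Rpl29, -0.78 ± 0.06 for Rpl15 and -1.02 ± 0.07 for Rplp0 (SE, limma adjusted p = 8.3e-08, 8e-07 and 2.8e-07). Scaled so that the core median was equal in all 6 libraries, the changes were about as large, at -1.48, -0.67 and -0.76, but did not pass (limma adjusted p = 0.18, 0.33 and 0.12). On that scale without library 3 they were -0.69, -0.24 and -0.49, and all 3 passed (limma adjusted p = 1.8e-05, 0.015 and 0.00013).

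Knockdown libraries 1 and 2 differed from each other by at most 0.141 on the log2 scale for any core gene. Both lay below all controls for 66 of 76 core genes and above them for 4, where 43.2% of all genes tested had these libraries below all controls and 42.2% above. Knockdown library 3 lay above all controls for 66 core genes, below them for 7 and among them for 3, where 48.0% of all genes had it below and 45.9% above. Both patterns at once, libraries 1 and 2 below and library 3 above, held for 56 core genes (73.7%) and for 8.78% of all genes tested. The median core gene stood at -0.61, -0.52 and 0.95 against the control mean (log2) in knockdown libraries 1, 2 and 3.

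Only 7 core genes had all 3 knockdown libraries below all controls, where 32.7% of all genes did. These were Rpl29, Rplp0, Rpl15, Rpl4, Rpl5, Rpl21 and Rps25. Another 4 had all 3 above, where 30.0% of all genes did: Rpl22, Rps20, Rps6 and Rpl10. The remaining 65 overlapped.

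**Figure D2:**
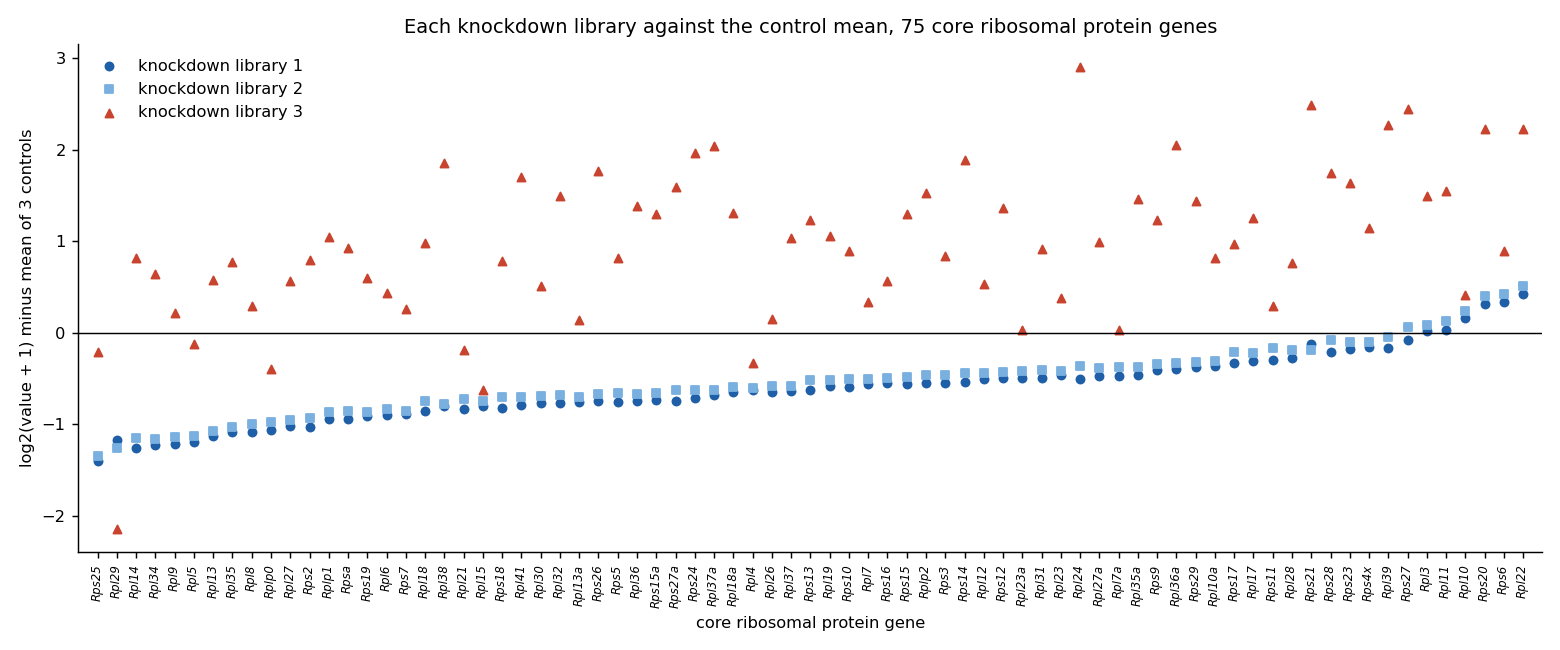
Log2 level of 75 of the 76 core genes (x axis, ordered by the change without knockdown library 3) in each knockdown library minus the mean of the 3 controls (y axis). Knockdown libraries 1 and 2 sit side by side and mostly below 0, while library 3 sits above all controls for 66 of the 76 genes and lies below libraries 1 and 2 for Rpl29 alone.

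Without knockdown library 3, the picture over the core was of broad lowering. limma then called 63 of 76 core genes lower and 4 higher, with 9 not called, and a median log2 change of -0.56. Of all genes tested, 39.9% were then called lower and 38.6% higher, with a median of -0.01. edgeR without that library gave the same counts, 63 lower and 4 higher, beside 6459 and 6489 of all genes tested. By part, 22 of 30 small-subunit genes were lower and 2 higher, 38 of 43 large-subunit genes were lower and 2 higher, and 3 of 3 stalk genes were lower. The medians were -0.51, -0.62 and -0.91. The log2 changes of the core ran from -1.38 for Rps25 to 0.46 for Rpl22.

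At the low end, Rps25, a small-subunit protein that some viral internal ribosome entry sites need, was at 32874, 30425 and 35133 in controls and at 12359, 12848 and 28182 in knockdown. Libraries 1 and 2 were far below the controls and library 3 just below them. Its log2 change was -1.38 ± 0.06 without library 3 (SE, limma adjusted p = 1.6e-08) and -0.99 ± 0.34 with it (limma adjusted p = 0.058). Rpl5, which with Rpl11 and the 5S ribosomal RNA forms a particle that can bind Mdm2, was at 40858, 38935 and 43368 in controls and at 17960, 18674 and 37636 in knockdown. Rpl11, its partner, was at 23880, 23138 and 27319 in controls and at 25225, 26952 and 72501 in knockdown. Without library 3 the log2 change was -1.16 ± 0.06 for Rpl5 (SE, limma adjusted p = 2.9e-08) and 0.08 ± 0.07 for Rpl11 (limma adjusted p = 0.35). Rpl5 lies on chromosome 5 and Rpl11 on chromosome 4, where the other genes tested had medians of -0.33 and 0.50 in the same comparison. The difference between the changes of Rpl5 and Rpl11 was not tested.

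Of the core genes with the highest normalised counts, uncorrected for length, Rpl8 was at 106229, 101834 and 115214 in controls and at 50753, 53929 and 131304 in knockdown. Rpsa, the small-subunit protein also known as the laminin receptor, was at 77676, 71986 and 83751 and at 40348, 42755 and 147917. Rplp1 was at 74313, 70578 and 81789 and at 39206, 41246 and 156219, and per kilobase of transcript it had the highest control level of the 76, 151422, where Rpl8 ranked 5 and Rpsa 38. All 3 repeat the same order, with libraries 1 and 2 lowest, controls between and library 3 highest. With 6 libraries their log2 changes were -0.60 ± 0.40, -0.29 ± 0.53 and -0.25 ± 0.56 (SE, limma adjusted p = 0.27, 0.68 and 0.74). Without library 3 they were -1.04, -0.90 and -0.91, and each was called lower.

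The genes with the smallest 6-library change show how the libraries offset each other. Rpl31, a protein near the exit of the peptide tunnel, was at 33679, 31041 and 37015 in controls and at 24000, 25540 and 63625 in knockdown, for a log2 change of 0.00 ± 0.40 (SE, limma adjusted p = 1). Rpl32 changed by 0.01 ± 0.62 and Rpl36 by -0.01 ± 0.58 (SE, limma adjusted p = 0.99 for both). Without library 3, limma called all 3 lower, at -0.45, -0.73 and -0.71. A change near 0 over the 6 libraries was thus an average of lower and higher values, not of values near the controls.

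The genes that were higher in knockdown libraries 1 and 2 were few. Rpl22, a large-subunit protein that can be lost without stopping growth, was at 13157, 12440 and 14936 in controls and at 18022, 19138 and 63141 in knockdown. Rps6, the small-subunit protein phosphorylated by S6 kinase downstream of mTOR, was at 25391, 23522 and 27352 and at 31923, 33971 and 47008. Rps20 was at 29616, 29371 and 32967 and at 38058, 40478 and 143143. Rpl10, an X-linked protein added late to the large subunit, was at 42053, 38985 and 44241 and at 46713, 49238 and 55385. In all 4, the lowest knockdown library was above the highest control. Without library 3 the log2 changes were 0.46 ± 0.07, 0.38 ± 0.07, 0.36 ± 0.06 and 0.20 ± 0.06 (SE, limma adjusted p = 0.00021, 0.00049, 0.00046 and 0.015). With it they were 1.05 ± 0.50, 0.55 ± 0.20, 0.98 ± 0.53 and 0.27 ± 0.16, none of which passed limma's adjusted p (0.14, 0.068, 0.18 and 0.22). The authors' deposited adjusted p, also over 6 libraries, was 0.030, 0.016, 0.044 and 0.056, so Rpl22, Rps6 and Rps20 passed there.

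The other X-linked core genes were not called higher. Rps4x changed by -0.13 ± 0.06 and Rpl39 by -0.11 ± 0.08 without library 3 (SE, limma adjusted p = 0.078 and 0.25). Rpl36a fell, by 0.37 on the log2 scale (limma adjusted p = 0.00042).

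Rplp2, the third stalk gene, was at 23307, 24549 and 25260 in controls and at 16623, 17639 and 70135 in knockdown. Against the core as a whole the stalk genes were unequal: scaled to the core median and without library 3, Rplp0 and Rplp1 were lower (-0.49 ± 0.08 and -0.38 ± 0.08, SE, limma adjusted p = 0.00013 and 0.00086), while Rplp2 was at 0.02 ± 0.09 (limma adjusted p = 0.82).

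Scaling each library to the median of the core removed their shared movement and left the differences among them. Without knockdown library 3, limma then called 18 core genes higher and 25 lower, with 33 not called, where 56.0% of all genes tested were called higher and 21.6% lower on that scale. Of the small-subunit genes 10 of 30 were higher and 6 lower, and of the large-subunit genes 8 of 43 were higher and 17 lower. With all 6 libraries on that scale, 11.0% of all genes were called higher and 9.82% lower. Of the core, 2 genes were higher, Rpl22 at 1.10 and Rps20 at 1.03 (limma adjusted p = 0.026 and 0.028), and 1 was lower, Rps25 at -0.94 (limma adjusted p = 0.042).

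The genes that stood against the general lowering lay partly together in the genome. Core members lie on 19 chromosomes. On chromosome 4, the 5 core genes, Rpl22, Rps6 and Rps20 among them, had a median log2 change of 0.36 without library 3, with 3 called higher and 0 lower. The other 970 genes tested on chromosome 4 had a median of 0.50 in the same comparison. Of the 71 core genes elsewhere, 63 were called lower and 1, Rpl10, higher. On chromosome 5, the 5 core genes (Rpl5, Rpl6, Rpl9, Rpl21 and Rplp0) had a median of -1.02, beside -0.33 for the other 1095 genes there. On chromosome 9, the 6 core genes (Rps25, Rpl29, Rpl14, Rplp1, Rpsa and Rpl4) had a median of -1.06, beside -0.09 for the other 918 genes. Core genes did not follow the other genes everywhere. On chromosome 16 the other 474 genes had a median of 0.35, while the 2 core genes, Rpl35a and Rpl24, were both called lower, with a median of -0.43. On chromosome 1 the other 1068 genes had a median of -0.26 and the 3 core genes one of -0.53. The part of chromosome-wide shifts in the changes of these core genes was not tested.

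**Figure D3:**
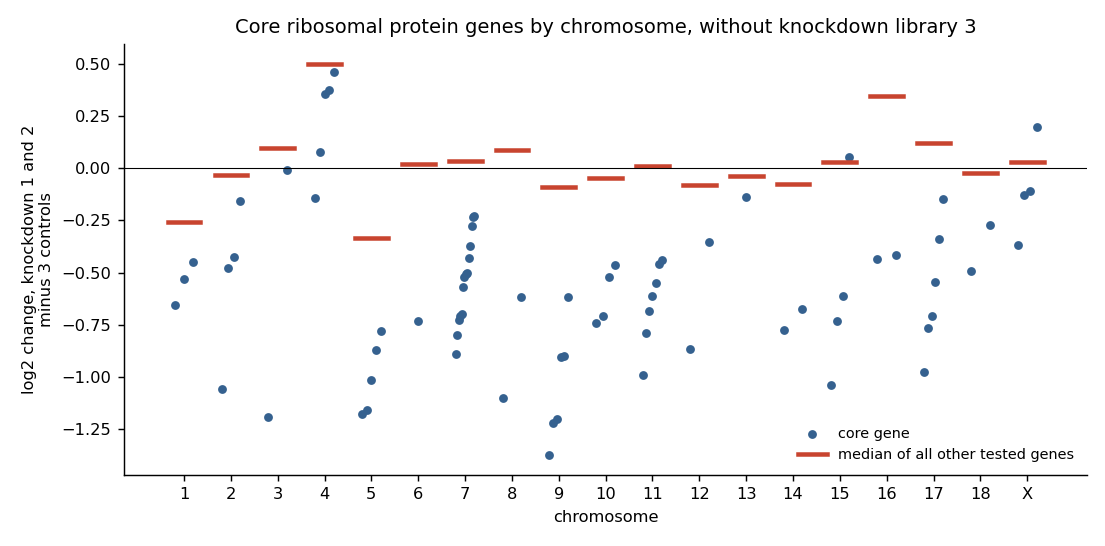
Log2 change of each core gene (points) in knockdown libraries 1 and 2 against the 3 controls (y axis), by chromosome (x axis), with the median of all other genes tested on that chromosome (red bars). Chromosome 4 has the highest bar, at 0.50, and holds 3 of the 4 core genes called higher, whereas core genes on chromosomes 5 and 9 have medians of -1.02 and -1.06.

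The rise in knockdown library 3 over libraries 1 and 2 was common to the core but varied in size. The median difference was 1.58 on the log2 scale, 75 of 76 core genes were above 0, and the values ran from -0.92 for Rpl29 to 3.34 for Rpl24. For all genes tested the median was -0.04. Rpl24, a large-subunit protein that bridges to the small subunit, was at 5428, 5282 and 6625 in controls and at 4047, 4464 and 42999 in knockdown. Its value in library 3 was thus 10.1 times the mean of libraries 1 and 2. At the other end, Rpl15 (0.15), Rpl10 (0.21) and Rpl4 (0.29) differed little between these libraries on the log2 scale.

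The size of this difference varied with coding length. Core genes are short, with a median coding length of 465 bases (141 to 1260) against 1404 for all genes tested with a coding length. For coding lengths up to 300 bases, the median difference between library 3 and libraries 1 and 2 was 2.44 in 9 core genes and 1.14 in 247 other coding genes. From 300 to 450 bases it was 1.82 in 26 core genes and 0.76 in 595 others. From 450 to 600 bases it was 1.5 in 18 core genes and 0.44 in 762 others. From 600 to 900 bases it was 1.31 in 19 core genes and 0.23 in 1789 others. From 900 to 1500 bases it was 1.03 in 4 core genes and -0.10 in 3674 others, and in genes over 3000 bases, none of them core, it was -0.67. At every length with core genes, their median was above that of other genes of like length. Across genes within these libraries, which share 1 denominator and are not independent replicates, Spearman's rho between coding length and the difference was -0.56 for 76 core genes and -0.35 for 13120 others. In knockdown library 1 against the control mean, rho with coding length was -0.16 for the core and 0.06 for the others. Short genes outside the core were lower there too. Up to 300 bases the median in library 1 was -0.38 in core genes and -0.25 in others. From 300 to 450 bases these were -0.56 and -0.25, and from 450 to 600 bases -0.58 and -0.21. From 600 to 900 bases they were -0.76 and -0.12, and from 900 to 1500 bases -0.83 and -0.02. The part of RNA quality or of transcript length in the values of library 3 was not tested.

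**Figure D4:**
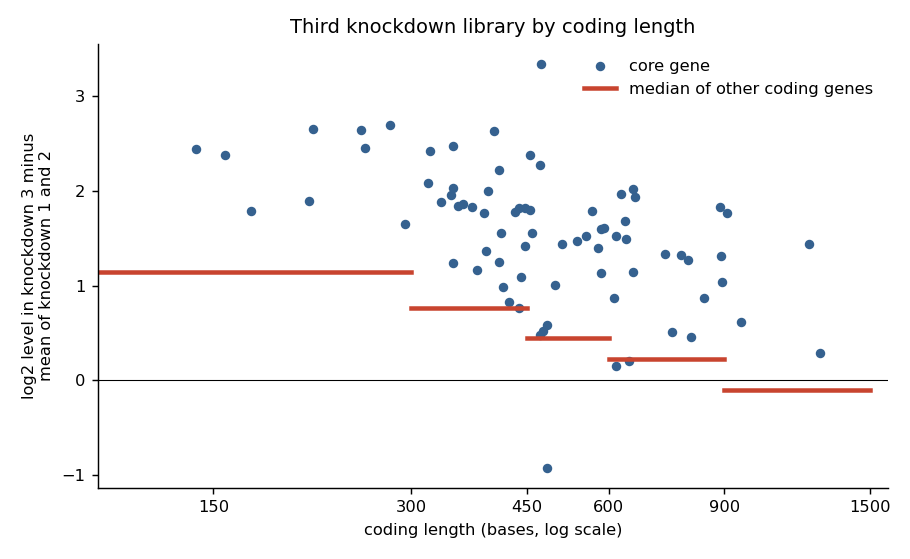
Log2 level in knockdown library 3 minus the mean of knockdown libraries 1 and 2 (y axis) against coding length in bases (x axis, log scale) for core genes (points), with the median of other coding genes in each length range (red bars). The bars fall from 1.14 to -0.10 from the shortest to the longest range shown, and most core genes lie above the bar of their range.

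Among the paralogs, Rpl3l showed the largest change. On chromosome 17 (24727820 to 24736143, plus strand, GRCm38), it had 107, 86 and 102 reads in controls and 3, 3 and 3 in knockdown, or 117, 109 and 96.9 normalised counts against 2.49, 2.51 and 3.35. Knockdown libraries, the third included, lay together and far below the controls. The scaled ratio of summed reads was 39.1-fold lower in knockdown, with a 95% counting interval of 20.3 to 86.4. The log2 change was -4.84 ± 0.27 (SE, limma adjusted p = 6.2e-05), and -4.95 ± 0.25 without library 3. Even in controls Rpl3l was minor: per base of transcript it made up 0.341%, 0.322% and 0.261% of the sum of Rpl3l and Rpl3. The loss of Rpl3l went with the muscle markers given above, and a separate part of either was not tested.

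Rpl3, its ubiquitous counterpart, was at 33436, 33051 and 36371 in controls and at 34806, 36274 and 96277 in knockdown. Rpl3 was among the 9 core genes not called without library 3, at 0.05 ± 0.06 (SE, limma adjusted p = 0.42). The log2 ratio of Rpl3l to Rpl3 was -8.31 ± 0.20 (SD, n = 3) in controls and -13.68 ± 0.65 in knockdown, a difference of -5.38. The exact two-sided permutation p was 0.1, the smallest that 3 against 3 libraries allow, and 0.15 adjusted over the 6 pairs.

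Rpl7l1, a paralog of Rpl7 known from ribosome assembly, was at 5672, 6017 and 5913 in controls and at 2947, 2960 and 3463 in knockdown. The groups did not overlap, and the log2 change was -0.91 ± 0.12 (SE, limma adjusted p = 0.0014). The ratio of Rpl7l1 to Rpl7 was lower in every knockdown library, by a mean log2 difference of -0.67 (exact permutation p = 0.1, adjusted 0.15). Without library 3 it was -0.99 ± 0.05 (SE, limma adjusted p = 2e-08). Scaled to the core median it was -0.86 with 6 libraries, which did not pass (limma adjusted p = 0.22), and -0.46 without library 3, which did (limma adjusted p = 0.00081).

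Rpl22l1, on chromosome 3 (28805436 to 28807424, plus strand), which can replace Rpl22 in the large subunit and whose level is known to respond to that of Rpl22, was at 3855, 3456 and 4495 in controls and at 924, 960 and 5787 in knockdown. Libraries 1 and 2 were below the controls and library 3 above them. Its log2 change was -1.18 ± 0.72 over 6 libraries (SE, limma adjusted p = 0.23) and -2.05 ± 0.09 without library 3 (limma adjusted p = 1.5e-08). Rpl22 moved the other way in libraries 1 and 2, so per base of transcript Rpl22l1 made up 52.1%, 50.8% and 52.8% of the pair in controls, 16.0% and 15.7% in knockdown libraries 1 and 2, and 25.4% in library 3. All 3 knockdown libraries were below all controls in this share. The mean log2 ratio differed by -2.23, with an exact permutation p of 0.1 and 0.15 adjusted.

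Rps27l, a paralog of Rps27 known as a target of p53, was at 5450, 4930 and 6257 in controls and at 2366, 2581 and 9141 in knockdown. Per base of transcript it made up 13.2%, 12.8% and 13.3% of the pair with Rps27 in controls and 6.37%, 6.32% and 4.39% in knockdown. The log2 ratio was lower in every knockdown library, by -1.34 on average (exact permutation p = 0.1, adjusted 0.15). The level of Rps27l itself did not pass over 6 libraries (-0.53 ± 0.53, SE, limma adjusted p = 0.45) and was lower without library 3 (-1.16 ± 0.09, limma adjusted p = 7.9e-07).

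The ratios of the processed pseudogenes to their parents overlapped between the groups. Rpl6l was at 127, 152 and 167 normalised counts in controls and at 78.8, 74.4 and 267 in knockdown. Its log2 ratio to Rpl6 differed by 0.09 (exact permutation p = 0.7, adjusted 0.84). Rpl32l was at 58.8, 69.5 and 74.1 and at 37.3, 31.8 and 392, and its log2 ratio to Rpl32 differed by 0.20 (exact permutation p = 0.9). The 4 protein-coding paralogs share 52.6% (Rpl7l1) to 73.7% (Rpl3l) of their coding bases with their counterparts in a pairwise alignment.

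**Figure D5:**
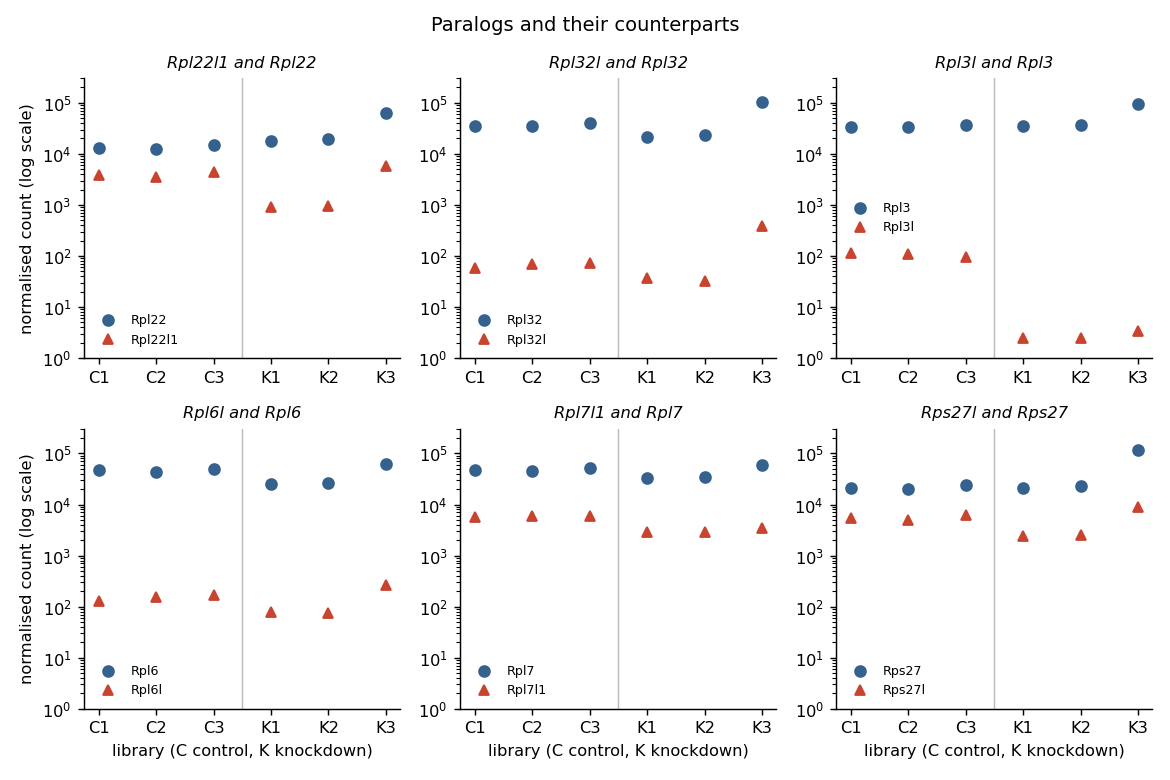
Normalised counts (y axis, log scale) of each paralog (triangles) and its counterpart (circles) in control (C1 to C3) and knockdown (K1 to K3) libraries (x axis). Rpl3l drops from between 96.9 and 117 to between 2.49 and 3.35 in all knockdown libraries while Rpl3 does not, and Rpl22l1 is low in K1 and K2 only.

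Of the paralogs, 2 of 6 were called lower and 0 higher by limma with 6 libraries, and the counts were the same at an unadjusted p under 0.05, in edgeR and in DESeq2. These stand beside 23.5% of all genes called lower and 21.7% higher, so 2 of 6 is near the share of all genes. Without knockdown library 3, 6 of 6 were called lower, beside 39.9% of all genes, with a median log2 change of -1.07.

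Other genes of the ribosome and of its synthesis were counted in 7 lists of 148 genes, written with earlier results of these data known. Beside their counts stand the shares of all genes tested: 23.5% lower and 21.7% higher with 6 libraries, 39.9% lower and 38.6% higher without library 3, and 48.0% with library 3 below all controls and 45.9% above. Of the ribosomal proteins outside the name rule, limma called 2 of 6 lower with 6 libraries and 5 of 6 without library 3, the first near the share of all genes. It called 0 higher with 6 libraries, with 0 at an unadjusted p under 0.05, 0 in edgeR and 1 in DESeq2. Rps3a1, a small-subunit protein, was at 32248, 32222 and 35507 in controls and at 20003, 21603 and 20767 in knockdown, a log2 change of -0.68 ± 0.13 (SE, limma adjusted p = 0.0082), and -0.68 ± 0.06 without library 3.

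Many ribosome biogenesis factors were lower even with all 6 libraries. limma called 28 of 49 lower and 0 higher, with a median log2 change of -0.83, and none was higher at an unadjusted p, in edgeR or in DESeq2. It called 46 lower and 1 higher without library 3, with a median of -0.98. Knockdown library 3 was below all controls for 38 of the 49 and above them for 9, where it was above all controls for 66 of 76 core genes. Values of library 3 varied with coding length, as given above, and this list was not matched to the core in length. The part of length in this contrast was not tested. Rrp9, a protein of the U3 small nucleolar ribonucleoprotein, was at 2163, 2156 and 2493 in controls and at 800, 804 and 834 in knockdown (-1.48 ± 0.11, SE, limma adjusted p = 0.00019). Ltv1, needed for export and maturation of the small subunit, was at 2128, 2008 and 2213 and at 853, 869 and 846 (-1.30 ± 0.10, limma adjusted p = 0.00022). Without library 3 they were at -1.50 and -1.30. For both, the 3 knockdown libraries lay together and below the controls.

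Of the RNA polymerase I list, 6 of 14 were lower and 2 higher with 6 libraries, and 11 lower and 3 higher without library 3, so those higher made up no more than the share of all genes. Polr1e, a polymerase I subunit, changed by -0.99 on the log2 scale and Rrn3, the initiation factor that responds to growth signals, by -1.40 (limma adjusted p = 0.0012 and 0.0018). Taf1b, part of the promoter selectivity factor, rose by 1.12 (limma adjusted p = 0.0024). Ubtf, which binds ribosomal DNA, rose by 0.46 (limma adjusted p = 0.047), a call lost with the replicate block and when control 1, control 3, knockdown 1 or knockdown 2 was left out (limma adjusted p from 0.094 to 0.18). Without library 3 limma called all 4 in these directions, at -0.97, -1.20, 1.23 and 0.46.

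Initiation factors counted 15 of 37 lower and 0 higher with 6 libraries, with 0 higher also at an unadjusted p, in edgeR and in DESeq2, and 31 lower and 1 higher without library 3. Eif2s1, the alpha subunit of the factor that brings the initiator tRNA, changed by -1.47 on the log2 scale, and Eif2b1, a subunit of its exchange factor, by -1.41 (limma adjusted p = 0.00098 and 0.00038). Elongation factors counted 4 of 11 lower and 2 higher with 6 libraries, and 9 lower and 2 higher without library 3, with those higher under the share of all genes. Eef1a2, the elongation factor isoform of muscle and neurons, had 171 reads over the controls and 2 over the knockdown libraries, which is 102-fold lower with a 95% counting interval of 27.8 to 849. Eef1e1, which also belongs to the aminoacyl-tRNA synthetase complex, fell by 1.83 (limma adjusted p = 0.0017). Eef2k, the kinase that inhibits elongation, rose by 1.13 (limma adjusted p = 0.0077), and Eif5a2 by 1.56 (limma adjusted p = 0.012), which missed the threshold without control 3 (0.050). Without library 3, limma called Eif2s1 (-1.30), Eif2b1 (-1.32), Eef1e1 (-2.08), Eef2k (1.38) and Eif5a2 (1.96) in these directions.

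Of the regulators of ribosome synthesis, 10 of 22 were lower and 2 higher with 6 libraries, and 15 lower and 7 higher without library 3, where 7 of 22 is under the share of all genes. Myc, a transcription factor that drives ribosome synthesis, was at 1675, 1800 and 1697 in controls and at 972, 908 and 834 in knockdown (-0.93 ± 0.11, SE, limma adjusted p = 0.0012). Mycl was at 253, 256 and 246 and at 63.0, 49.4 and 41.4 (-2.30 ± 0.21, limma adjusted p = 0.00038). Max, the partner of Myc, rose by 0.93 and Maf1, a repressor of RNA polymerase III, by 0.91 (limma adjusted p = 0.0013 and 0.00093). For these 4 genes the groups did not overlap, and without library 3 the changes were -0.87, -2.15, 0.86 and 0.88. Of 9 genes for ribosome rescue and quality control, limma called 0 in either direction with 6 libraries, with 2 lower at an unadjusted p under 0.05, 0 in edgeR and 2 lower in DESeq2, and 5 lower and 1 higher without library 3. Abce1, the recycling factor, changed by -0.04 ± 0.12 (SE, limma adjusted p = 0.79), and by 0.02 ± 0.05 without library 3 (limma adjusted p = 0.72).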

How the data were processed

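The 6 C2C12 libraries (3 control, 3 Adamtsl2 knockdown) were grouped and numbered by their titles. Per the labels' protocols, TRIzol RNA was enriched for poly(A) transcripts and sequenced in pairs. The submitters' processing notes name Trimmomatic 0.36, featureCounts in Subread 1.5.2, DESeq2 and GRCm38. The aligner, annotation release, strandedness and treatment of multiply mapping reads were not given in the sources used here. Without strand, reads of overlapping antisense genes cannot be told apart. Levels of different genes were compared per transcript length only where stated. The log2 ratios of paralogs to counterparts, the shares of reads and the ratio of the subunits were not corrected for length. The rule for the most and least abundant genes ranked mean normalised counts over the 6 libraries.

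The deposited signal is a gene's count divided by a size factor per library, called normalised count here. Per the file headers, the table also held the authors' log2 fold change, p-value and adjusted p-value. Dividing by the value of 1 read gave whole numbers (tolerance 0.01) for 100% of values in every library. On these recovered reads edgeR called 0 core genes higher and 4 lower, beside 3765 and 3579 of all genes tested. Intervals cover counting error only.

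The main test was limma 3.58.1 (R 4.3.3), two-sided, on log2(value + 1) with a mean-variance trend and no block, with Benjamini-Hochberg adjustment over all genes tested. This scale understates changes of low genes. Alternatives were edgeR 4.0.16, DESeq2 1.42.0, other pseudocounts, filters and scalings, a replicate block, and each library left out. The procedure was tested on simulated data. A chi-square per gene, which sampling noise alone puts at 1, was 3.82 between knockdown libraries 1 and 2 and higher between other replicates, so all were kept as separate samples. Positions and lengths came from GENCODE M21, using the transcript of longest coding sequence and, where these were equal, the longest transcript. Some of these are much longer than their coding part, such as 1938 bases for 888 coding in Rpsa and 2051 for 387 in Rpl22. Levels, ranks and pair shares per transcript length depend on that choice.

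The members and lists were chosen with earlier results of these data known. Genes named by rule were all paralogs and their counterparts, Rpsa, the stalk genes, the X-linked core genes, up to 6 called core genes per direction, the 4 most and 3 least abundant, the 3 with the smallest change, and up to 2 per direction of each list. Of the least abundant, Rpl26 changed by -0.36 ± 0.23 (SE, limma adjusted p = 0.26). Rpl4, Rpl5, Rpl9, Rpl11, Rpl14, Rpl21, Rpl35, Rps6, Rps20 and Rps25 were named after their values were seen. Some genes given by the rule or the lists are not reported here.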

Additional observations from a re-analysis of the deposited data

How the results depend on the processing

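Leaving out knockdown library 3 changed the results most. The number of core genes called by limma ranged from 0 to 4 higher and from 2 to 63 lower when 1 library was left out, paralogs called lower from 2 to 6, and genes of the 7 lists from 4 to 15 higher and from 42 to 122 lower, against 6 and 65 with all libraries. edgeR without that library called 4 core genes higher and 63 lower, 6 paralogs lower, and 18 list genes higher and 122 lower. Of all 16245 genes tested, it called 6489 higher and 6459 lower. DESeq2 with 6 libraries called 3 core genes higher and 6 lower. Scaled to the core median, a choice made after seeing the data, limma called 2 core genes higher and 1 lower, 1 paralog lower, and 0 list genes higher and 9 lower. Of all genes tested, 11.0% were then higher and 9.82% lower. Without knockdown library 3 these became 18 core genes higher and 25 lower, 5 paralogs lower, and 42 of 148 list genes higher and 66 lower. Of all genes tested, 56.0% were then higher and 21.6% lower. Among the genes named by rule, log2 changes changed sign and passed in edgeR without knockdown library 3 for Rpl24 (-0.42), Rpl31 (-0.43), Rpl32 (-0.71), Rpl32l (-0.95), Rpl36a (-0.35) and Rplp2 (-0.49). They did so in limma without it. In limma, values with 1 library left out ranged from -0.44 to 1.27 for Rpl24, -0.45 to 0.25 for Rpl31, -0.73 to 0.40 for Rpl32, -0.94 to 0.85 for Rpl32l, -0.37 to 0.86 for Rpl36a and -0.51 to 0.53 for Rplp2. Rps4x (0.30 to -0.13), Rpl39 (0.68 to -0.11) and Rps27 (0.81 to -0.01) also changed sign in limma but did not pass. Core genes not named by rule changed sign too, such as Rpl38 (0.09 to -0.79) and Rps24 (0.20 to -0.67), both called lower without library 3. Rpl32 was at -0.20 scaled to the core median without it. The log2 ratio of the core share was 0.33, and -0.35 to 0.59 with 1 library left out. Ratios of paralogs to counterparts ranged, with 1 library left out, from -2.52 to -2.08 for Rpl22l1, -0.21 to 0.49 for Rpl32l, -5.58 to -5.00 for Rpl3l, -0.068 to 0.21 for Rpl6l (also below 0 without control 1), -0.79 to -0.46 for Rpl7l1 and -1.44 to -1.15 for Rps27l; a pseudocount of 5 gave -4.38 for Rpl3l. The cause of these differences was not tested. Upper-quartile scaling shifted the median of all genes by 0.12 and called 2 core genes lower. Whether the numbers 1 to 3 pair the samples was not settled. Deviations of same-numbered libraries correlated at 0.02, 0.10 and 0.14. Controls 1 and 3 correlated best with the knockdown library of their own number, and control 2 did not. So few libraries cannot decide it. With the replicate block, limma called 0 core genes higher and 2 lower, and 2 paralogs lower. At this depth, Rpl3l had 9 reads over the knockdown libraries, which limits the precision of its fold.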
